A study of Mus musculus with 12 samples.

Results

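Fgf4, Utf1, Fbxo15, Lefty1 and Spp1 are 5 genes of mouse embryonic stem (ES) cells whose enhancers were among the first shown to bind the transcription factors OCT4 and SOX2. Chromatin accessibility at these genes was described from the list of ATAC-seq peaks that the authors merged over all conditions, in which each entry, called a region here, is a stretch of accessible DNA given by its start and end. Regions were taken when they overlapped the body of 1 of the 5 genes (GENCODE M21, GRCm38/mm10) or the 20 kb to either side by at least 1 bp. This gave 59 of the 170548 regions of the list, with 12 at Fgf4, 9 at Utf1, 20 at Fbxo15, 9 at Lefty1 and 9 at Spp1. No entry was shared between genes.

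ATAC-seq uses a transposase to cut open chromatin and tag it for sequencing. The 12 libraries came from 2 mouse ES cell lines, ZHBTc4 and 2TS22C, grown with serum, LIF and the inhibitors CHIR99021 and PD184352. In ZHBTc4 cells the endogenous Oct4 alleles are disrupted and OCT4 comes from a transgene that doxycycline (dox) shuts off, and 2TS22C cells carry the same arrangement for SOX2. The untreated cells of both lines therefore also depend on a transgene. There were 2 libraries each of ZHBTc4 cells left untreated (OCT4 ON) or given 1 µg/ml dox for 24 hr (OCT4 OFF), and of 2TS22C cells left untreated (SOX2 ON) or given the same dose (SOX2 OFF) for 26 hr or 40 hr. Whether peaks of a published ATAC-seq dataset of ZHBTc4 cells in serum and LIF without the inhibitors also entered the list is not given in the sources used here, so some regions may come from libraries other than the 12. The list pools the peaks of all conditions and holds no read number, peak height or value per library, so neither a level per sample nor a change on OCT4 or SOX2 loss could be given, and sequencing depth is unknown.

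OCT4 (encoded by Pou5f1) and SOX2 bind DNA side by side at composite elements, in which a SOX site is followed after a short spacer by a POU site related to the octamer. Such elements drive the ES cell expression of many pluripotency genes, and most lie in enhancers away from the promoter. OCT4 can also bind as a dimer to a palindromic Oct element, the PORE, which was described in the first intron of Spp1. The enhancers known for the 5 genes lie at the 3′ end of Fgf4 and of Utf1, upstream of Fbxo15 and of Lefty1, and in that intron of Spp1.

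Of these enhancers, the elements on chromosomes 1, 5 and 7 are shown here, and Fbxo15 is described further on without its sequence. Matches to the composite were searched on both strands as the SOX word CATTGT, 0 to 3 spacer bases and the octamer ATGCAAAT, with at most 1 mismatch in the SOX word and at most 2 in all. Looser settings allowed at most 3 mismatches in all, or spacers of 0 to 4 bases with at most 2 mismatches, the second of which was chosen after the values were seen. The PORE was searched as ATTTGAAATGCAAAT with at most 1 mismatch, and it contains the octamer. The 4 lines give the element in the orientation in which the SOX word comes first, or the plus strand for the PORE, 5′ to 3′ with GRCm38 coordinates of the element, and capitals mark the bases of the SOX, POU and PORE words.
Fgf4 3′ element, chr7:144864394-144864411, plus strand: aaactCTTTGTttggATGCTAATgggat
Utf1 3′ element, chr7:139945681-139945695, minus strand: gccgtCATTGTtATGCTAGTgaagt
Lefty1 upstream element, chr1:180933869-180933883, minus strand: ccaccCTTTGTtATGCAGAAgagca
Spp1 intron 1 PORE, chr5:104435975-104435989, plus strand: aatcacATTTGAAATGCAAATggaaaa
The Utf1 element met the composite setting, with 0 mismatches in the SOX word, 2 in the POU word and a spacer of 1 base. The Fgf4 element had 1 mismatch in each word and a spacer of 4 bases, so it was found only with the longer spacer. The Lefty1 element had 1 mismatch in the SOX word and 2 in the POU word and was found only with 3 mismatches allowed. The Spp1 PORE had 0 mismatches.

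Longer stretches of 3 distal regions show where the matches lay in accessible DNA. All 3 are written on the plus strand of GRCm38, 240 bases each, with composite and octamer matches in capitals. The Utf1 and Lefty1 stretches come from the regions at the known enhancers, and the Spp1 stretch comes from the region downstream of the gene, which held the other composite match of the 59 regions.
Utf1, chr7:139945568-139945807: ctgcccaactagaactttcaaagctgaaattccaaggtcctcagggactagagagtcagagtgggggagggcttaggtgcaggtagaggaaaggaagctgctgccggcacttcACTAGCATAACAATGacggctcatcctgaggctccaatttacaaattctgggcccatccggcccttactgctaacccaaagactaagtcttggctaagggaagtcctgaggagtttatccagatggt
Lefty1, chr1:180933822-180934061: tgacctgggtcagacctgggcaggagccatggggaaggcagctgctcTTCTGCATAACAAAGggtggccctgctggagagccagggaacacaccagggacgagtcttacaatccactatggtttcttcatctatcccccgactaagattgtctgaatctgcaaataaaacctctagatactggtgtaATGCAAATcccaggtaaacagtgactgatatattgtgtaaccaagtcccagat
Spp1, chr5:104442482-104442721: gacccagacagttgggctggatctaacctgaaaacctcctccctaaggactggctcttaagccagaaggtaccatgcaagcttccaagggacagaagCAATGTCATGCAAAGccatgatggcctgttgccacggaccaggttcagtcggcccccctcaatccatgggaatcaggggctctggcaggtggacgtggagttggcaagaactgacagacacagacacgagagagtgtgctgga
In the Lefty1 stretch the composite match, found only with 3 mismatches allowed, was followed by an exact octamer. The Utf1 and Spp1 stretches each had a single composite match marked, with 2 mismatches.

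**Figure D1:**
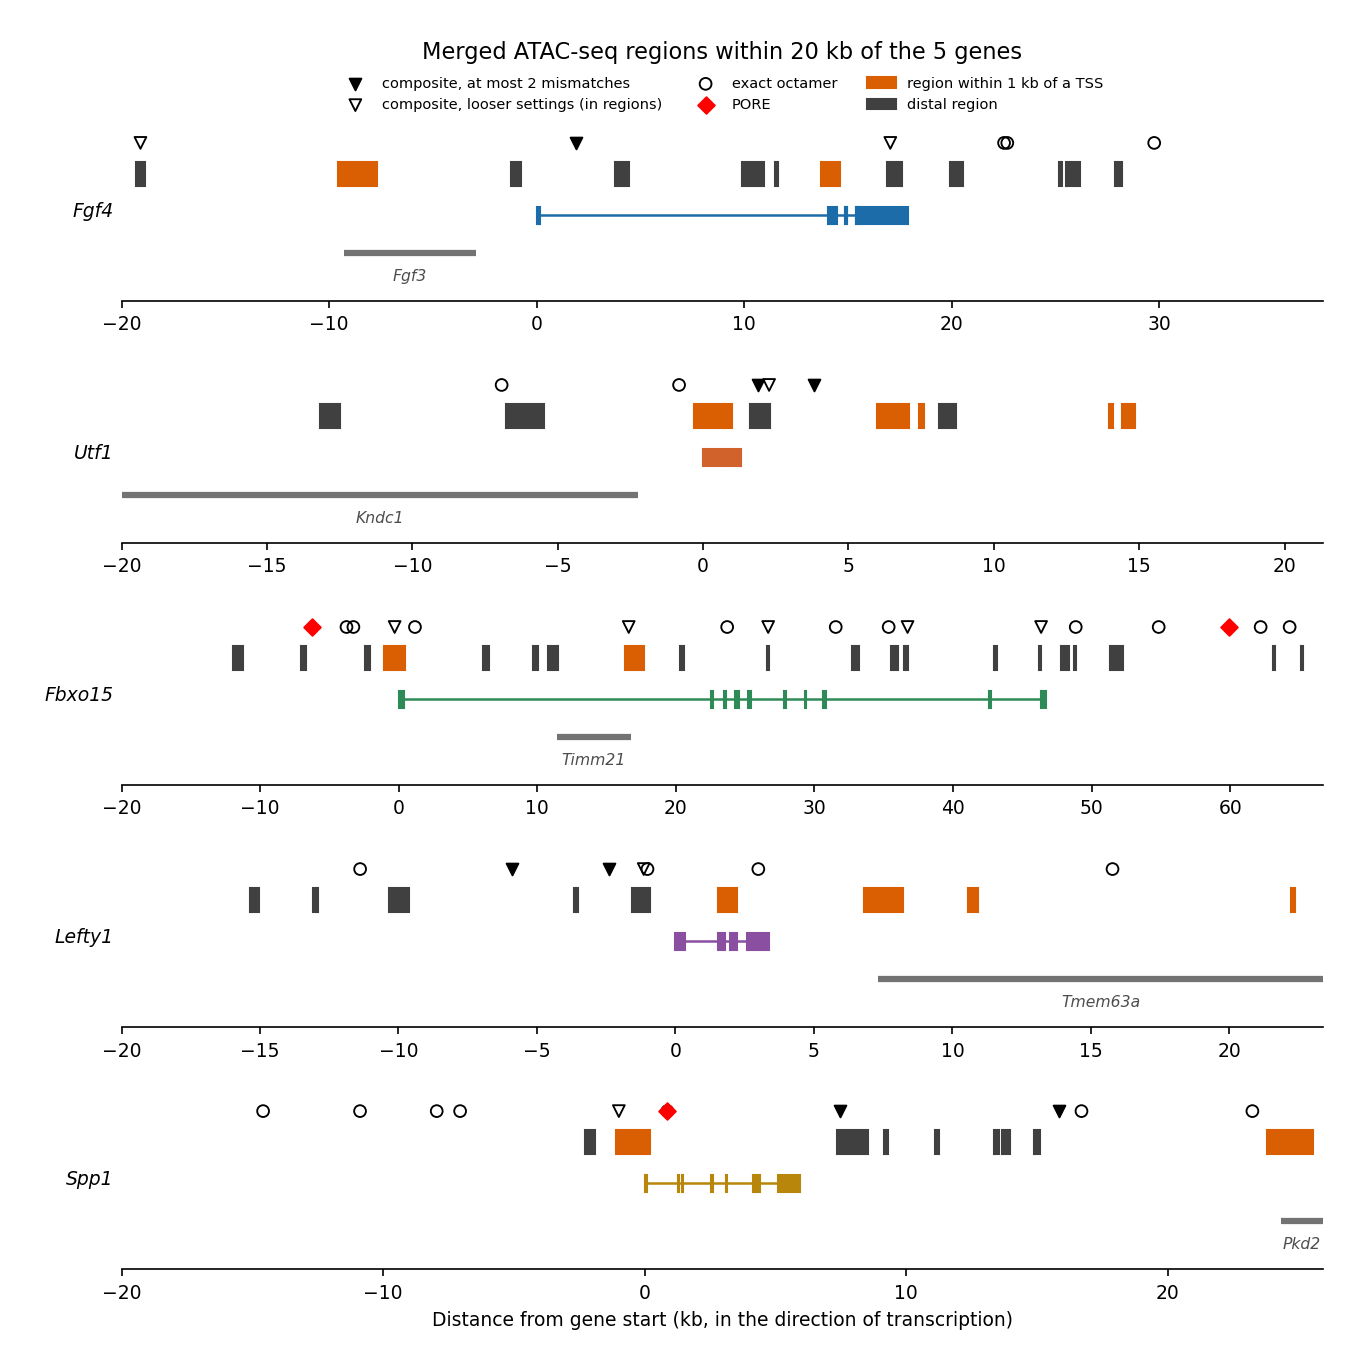
Each panel shows 1 gene with the distance from its start in kb, its exons as colored boxes, neighboring protein-coding genes in gray, the 59 merged regions as blocks (orange within 1 kb of a TSS, dark gray distal) and motif matches as symbols above. The red PORE symbol of Spp1 stands over no region, and the 17731 bp upstream of its promoter cluster hold none.

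The known enhancers were compared with the list through windows set by the annotation. For Fgf4 and Utf1 the window was the last exon of the protein-coding transcript with the longest genomic span and the 1 kb after it, for Fbxo15 and Lefty1 the 1 kb upstream of the transcript start, and for Spp1 the first intron. A window held a region when they overlapped by at least 1 bp. By this rule 4 of the 5 windows held a region, the exception being Fgf4. Windows of the same kind were not counted at other genes, so this count and those under other settings have no background share. At Fbxo15 and Spp1 the only region in the window was the one over the TSS. A region over a TSS was found at 67.1% of protein-coding genes. The overlaps differed widely in size. At Fbxo15 a region covered all 1000 bp of the window, and at Utf1 a 673 bp region lay wholly inside it. At Lefty1 and Spp1 the overlap was 70 bp and 110 bp. The window rule and the printed elements gave different pictures. At Spp1 the overlap was the end of the region over the TSS, and the PORE lay in no region. The Fgf4 and Lefty1 elements lay in regions, but outside these windows. When the center of a region had to lie in the window, 2 of the 5 remained, Utf1 and Fbxo15. With 0.5 kb in place of 1 kb, 3 windows held a region, since Lefty1 was lost, and with 2 kb all 5 did, since Fgf4 was gained.

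**Figure D2:**
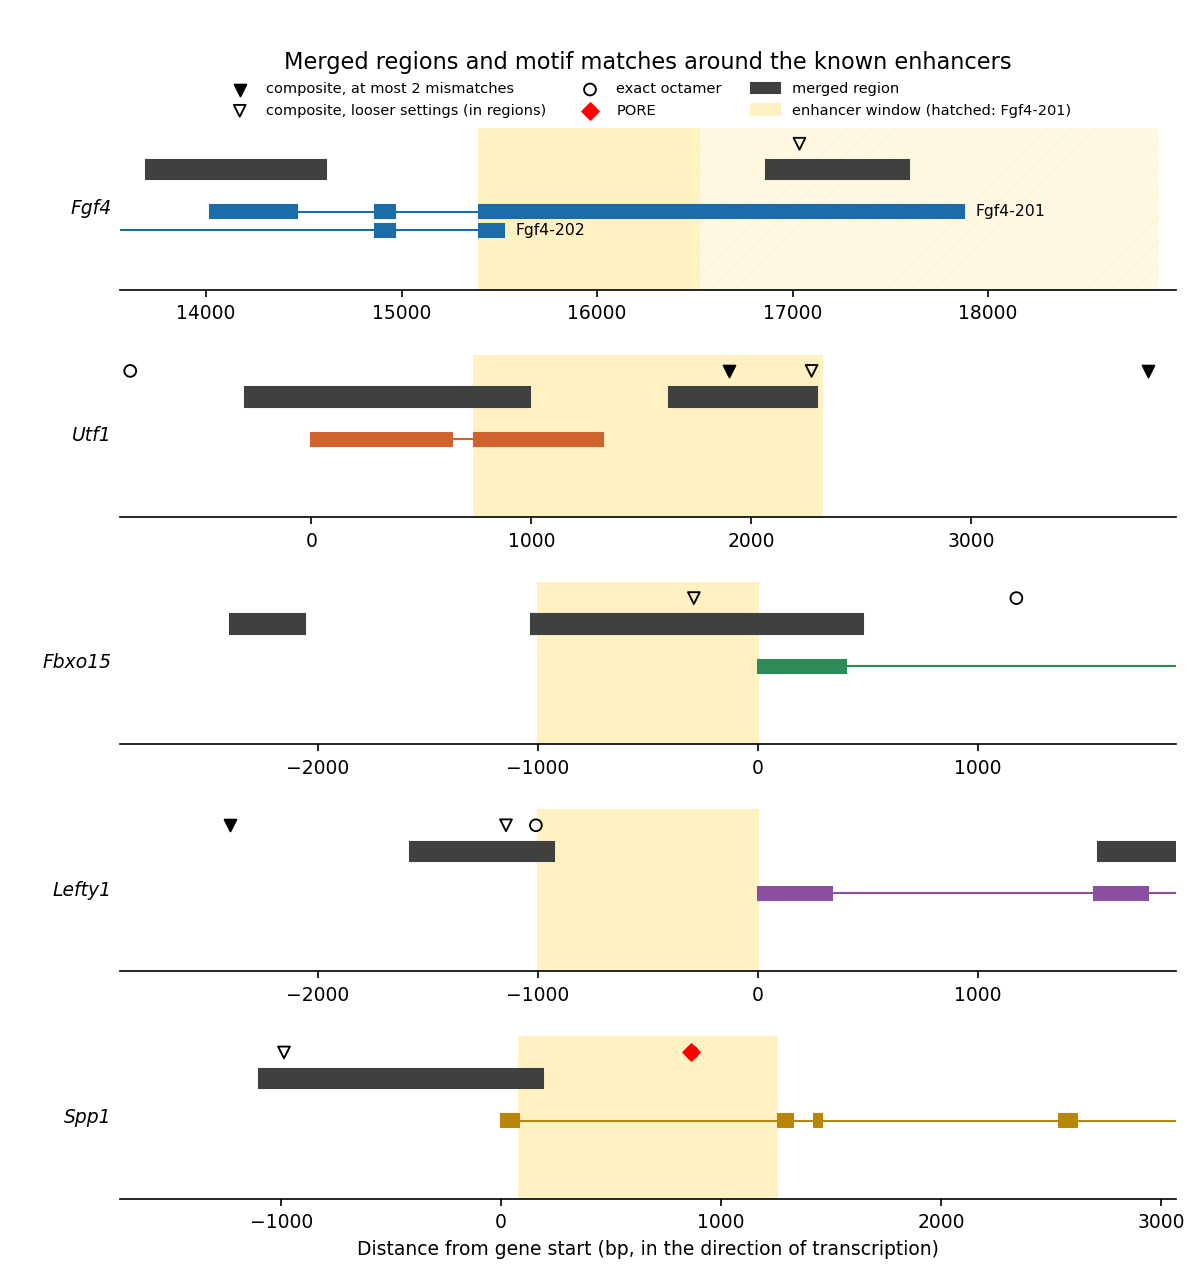
Each panel shows the neighborhood of 1 known enhancer, with the distance from the gene start in bp, the enhancer window in yellow (hatched for the longer Fgf4 window), merged regions in dark gray, exons in color and motif matches as symbols. Regions cover a composite match at Utf1 and, by the looser settings, at Fgf4, Fbxo15, Lefty1 and Spp1. The Spp1 match lies in the promoter region, and the Spp1 PORE begins 669 bp past the last base of that region, the nearest one.

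Fgf4 encodes a secreted fibroblast growth factor by which ES cells signal to each other. The gene (ENSMUSG00000050917.5) spans chr7:144847367-144865243 on the plus strand, and 5 of its 12 regions overlapped it. The transcript with the longest genomic span, Fgf4-202, starts 14019 bp upstream of Fgf4-201, the form that reaches the 3′ end of the gene and has more exonic sequence. A 921 bp region, chr7:144861058-144861978, covered the TSS of Fgf4-201. No region covered the TSS of Fgf4-202, to which the nearest region lay 774 bp away. The region at the 3′ end, chr7:144864229-144864959, was 731 bp wide and was centered 3208 bp downstream of the Fgf4-201 TSS, in the part of the last exon that is annotated as 3′ UTR. It lay 339 bp beyond the window drawn from Fgf4-202. With Fgf4-201 in its place, a choice made after the values were seen, the window held the whole region. All 5 enhancer windows then held one, or 3 when the region center had to lie in the window. The overlaps at Lefty1 and Spp1 stayed at 70 bp and 110 bp, and the Spp1 PORE lay in no region. The Fgf4 element printed with the sequences lay inside the 731 bp region, 192 bp upstream of its center.

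The other Fgf4 regions lay upstream of the gene, in its body and downstream, and the last 9685 bp of the downstream flank held none. In the long first intron of Fgf4-202 there were 3 distal regions, of 684 bp, 1088 bp and 138 bp, and 4 regions lay beyond the 3′ end of the gene, of 654 bp, 175 bp, 657 bp and 337 bp. The widest region of the locus, at 1889 bp, covered the TSS of Fgf3, another fibroblast growth factor gene. The single composite match with at most 2 mismatches in the Fgf4 window, chr7:144849238-144849251, lay in the first intron, 1893 bp from the nearest region. With 3 mismatches allowed, 1 further match fell in a region, 18 bp from the center of the outermost one, upstream of Fgf3.

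Lefty1 encodes a secreted inhibitor of Nodal signaling. The gene (ENSMUSG00000038793.8) spans chr1:180935022-180938400 on the plus strand, and 1 of its 9 regions overlapped it. No region covered the TSS of its protein-coding transcript, Lefty1-201. The nearest was the 651 bp region chr1:180933441-180934091, whose edge lay 931 bp and whose center lay 1256 bp upstream of that TSS. This region held both the Lefty1 element, 110 bp from its center, and the exact octamer chr1:180934009-180934016, 246 bp from its center. Both lay more than 1 kb upstream of the TSS, so the 1 kb window touched the region but held neither.

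The region inside the gene body, chr1:180936565-180937231, was 667 bp wide, reached from the second to the third exon and covered the start of a shorter Lefty1 transcript annotated as a retained intron. It shared sequence with the neighboring gene Lefty2. Of its 593 stretches of 75 bases, the read length, 138 (23.3%) also occurred in the Lefty2 window, so that a single read taken from 1 of them has a possible origin at both genes. The other 58 regions held 0% of stretches found elsewhere in the genome. Of the 4 other upstream regions of Lefty1, the widest, at 713 bp, was centered 9976 bp upstream of the TSS. The 3 regions downstream of the gene lay within 1 kb of a TSS of Tmem63a or 2210411M09Rik, and the 1398 bp region at Tmem63a was the widest of the locus. Composite matches outside regions lay 5908 bp and 2402 bp upstream of Lefty1-201, and they were 2254 bp and 813 bp from the nearest region.

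Spp1 encodes osteopontin, a secreted phosphoprotein of the extracellular matrix. The gene (ENSMUSG00000029304.14) spans chr5:104435118-104441050 on the plus strand, and 1 of its 9 regions overlapped it. This was a 1291 bp region, chr5:104434016-104435306, that covered the TSS and reached 110 bp into the first intron. Of the 5933 bp of the gene, 189 bp (3.19%) lay in a region. The first intron, chr5:104435197-104436374, held the PORE, which began 669 bp past the last base of the promoter region. The next region began at chr5:104442482, so a stretch of 7175 bp with the PORE and the rest of the gene held no region. The same bases of the PORE lie in an exon of Gm42793, a model of unclear status on the same strand.

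Downstream of Spp1, the 1159 bp region chr5:104442482-104443640 was centered 7943 bp from the gene start. It held the only composite match of the Spp1 regions with at most 2 mismatches, chr5:104442579-104442593, with 1 mismatch in each word and a spacer of 1 base. The match lay 475 bp from the center of the region, close to its upstream edge, and 52.3% of the bases of the region were masked as repeats. A further 5 distal regions, of 128 bp to 303 bp, lay between this one and Pkd2, a polycystin gene, whose promoter region of 1762 bp was the widest of the locus. Upstream of Spp1 there was 1 region besides the promoter region, 367 bp wide, and then 17731 bp with none. With 3 mismatches allowed, a match lay in the promoter region, 987 bp upstream of the TSS.

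Utf1 encodes a chromatin-associated protein of undifferentiated ES cells. The gene (ENSMUSG00000047751.9) spans chr7:139943789-139945112 on the plus strand and has 2 exons. The 1295 bp region chr7:139943489-139944783 covered the TSS and was the only region to overlap the gene, of which 75.2% lay in it. The 673 bp region chr7:139945414-139946086, downstream of the gene, was centered 1961 bp from the TSS. It held the Utf1 element 62 bp from its center, the nearest of the composite matches with at most 2 mismatches in the 59 regions to a region center. A looser match with 3 mismatches lay 313 bp from the same center, on the same strand. Outside regions, 1 composite match lay 3802 bp downstream of the TSS and 1498 bp from the nearest region.

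Of the 7 other regions of the Utf1 window, 4 lay within 1 kb of the TSS of a non-coding gene downstream. These were 2 at Gm16201, 1 at Mir202 and 1 at Gm2044. The remaining 3 were distal, with 2 in the upstream neighbor Kndc1, where the widest of the locus (1299 bp) was found, and 1 in an intron of Gm16201. The Utf1 window thus had more proximal than distal regions (5 and 4), and at each of the other genes distal regions were the more numerous.

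Fbxo15 encodes an F-box protein of substrate-recognizing ubiquitin ligases and is widely used as a reporter of the ES cell state. The gene (ENSMUSG00000034391.12) spans chr18:84934782-84981473 on the plus strand, and 12 of its 20 regions overlapped it. The 1510 bp region chr18:84933751-84935260 covered the whole 1 kb upstream window and the TSS of both Fbxo15-204 and Fbxo15-201, and it was the widest of the locus. A composite match with 0 mismatches in the SOX word, 3 in the POU word and a spacer of 1 base lay on the minus strand 292 bp upstream of the TSS, 15 bp from the center of this region. A second promoter region of 1367 bp covered the TSS of Fbxo15-202 and that of Timm21, a mitochondrial import gene on the opposite strand.

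The other 18 regions of Fbxo15 were distal, with 10 centered in introns of the gene and 8 in intergenic sequence. They were narrow, and the 20 regions together had a median width of 344 bp. With 3 mismatches allowed, 4 further matches lay in regions of the gene body, 3 of them in distal regions, at 4 bp, 108 bp and 60 bp from the center. These 3 regions were only 160 bp, 278 bp and 155 bp wide, so no match in them could lie far from a center. At this setting 10.9% of all regions of the list held a match. The 173 bp region chr18:84983492-84983664, downstream of the gene, held an exact octamer. Matches to the PORE lay 451 bp and 3124 bp from the nearest region.

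In all, the composite was found in 2 of the 59 regions (3.39%, 95% Wilson interval from 0.935% to 11.5%), against 1.78% of all regions of the list. Both were wider than the median region. Among the 29136 regions of the list between 673 bp and 1159 bp wide, 2.74% held a match. The 5 genes had 11 regions in this range, whose limits were set by the widths of the 2 with a match. With a spacer of up to 4 bases the count rose to 3 regions (5.08%) against 2.13% of the list, and with 3 mismatches it was 10 regions (16.9%, from 9.48% to 28.5%) against 10.9%. The interval of the share at the 5 genes included that of the list at each setting. An exact octamer was found in 2 of the 59 regions against 3.72% of the list, and the PORE in 0 against 0.189%. Regions of 1 gene are neighbors and are not replicates, and the intervals cover counting error only. These matches are sequence descriptions and do not show binding.

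Per base, the 5 windows held 5.78 composite matches per 100 kb inside regions (2 matches in 34607 bp) and 2.08 outside them (5 matches in 240598 bp). Over the whole list there were 3.69 per 100 kb inside regions and 7.06 in the rest of the genome. The words searched are mostly A and T, and the regions were not matched to the rest of the genome for base composition. What base composition adds to this difference was not tested. The values of the 5 windows rest on 2 and 5 matches, so the order of inside and outside there could turn with a few matches.

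A region covered the TSS of a protein-coding transcript at 4 of the 5 genes, all but Lefty1, against 67.1% of 21938 protein-coding genes. The number of regions in the window was compared with that of the same genes. The median gene had 7 regions (quartiles 4 and 11), and 1385 genes (6.31%) had none. The 9 regions of Utf1, Lefty1 and Spp1 were more than those of 59.7% of genes, the 12 of Fgf4 more than those of 77.2% and the 20 of Fbxo15 more than those of 93.7%. Gene length differs, and Fbxo15 had the longest window. Per kb of window the 5 genes were close together, from 0.196 at Spp1 to 0.231 at Fbxo15, above the values of 87.9% to 94.8% of genes, whose median was 0.105. Regions covered 10.5% (Lefty1) to 15.5% (Utf1) of the windows, and the median gene had 5.81%.

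**Figure D3:**
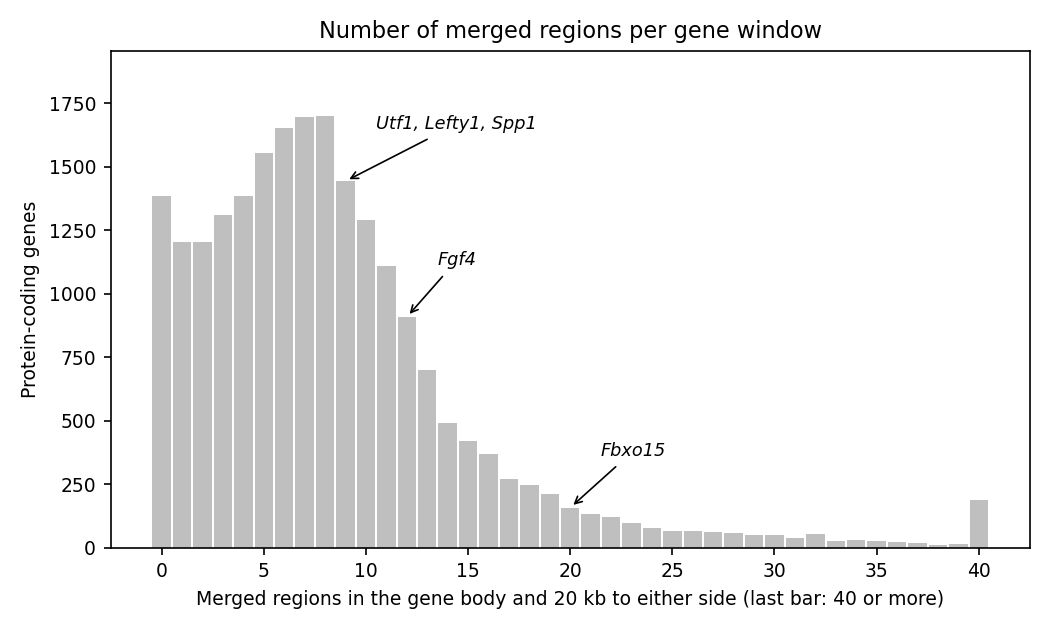
The bars count protein-coding genes by the number of merged regions in the gene body and 20 kb to either side, with genes of 40 or more in the last bar. Utf1, Lefty1 and Spp1 (9 regions) stand just right of the peak of the distribution, Fgf4 (12) further out and Fbxo15 (20) in the tail.

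Among 7 other genes with known OCT4-SOX2 enhancers the windows held 10 to 15 regions, or 0.193 to 0.335 per kb with a median of 0.276. The median of the 5 genes was 0.207. Pou5f1 had the highest value of this list and Zfp42, which encodes the ES cell marker REX1, the lowest, and only Pou5f1, Sox2, Nanog and Tdgf1 lay above all 5 genes. Relatives of the 5 genes by family or gene cluster had fewer regions per kb, from 0.0191 to 0.194 with a median of 0.0751. The highest of them, Fgf3, was close to the 0.196 of Spp1. Fgf3 and Fgf15, which neighbor Fgf4, had 9 and 7 regions, and Lefty2 had 8. The 4 genes of bone and tooth matrix proteins in the Spp1 cluster, Ibsp, Mepe, Dmp1 and Dspp, had 1 to 4 regions each and none over a TSS. Windows of Fgf3 and Fgf4 overlap, so these 2 counts share regions. Overlap also occurs between the windows of Ibsp and Mepe, Dmp1 and Dspp, Fgf4 and Fgf15, and Lefty1 and Lefty2.

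**Figure D4:**
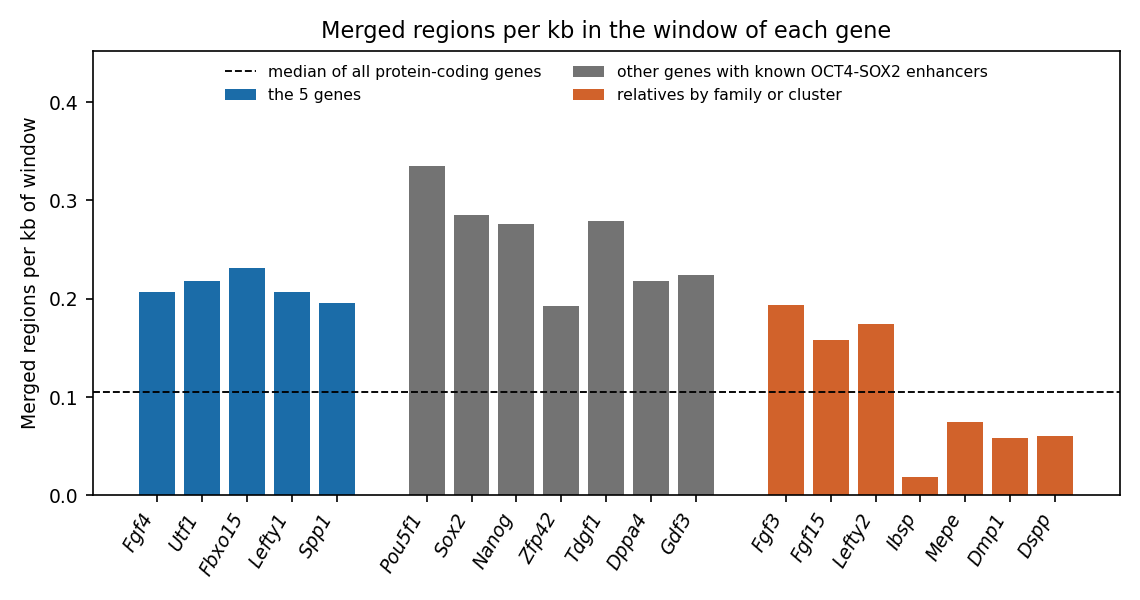
Bars give merged regions per kb of window for the 5 genes (blue), other genes with known OCT4-SOX2 enhancers (gray) and relatives by family or cluster (orange), with the median of all protein-coding genes (0.105) dashed. The 5 genes lie between 0.196 and 0.231, and the 4 bone and tooth matrix genes on the right lie below the dashed line.

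The 59 regions had a median width of 444 bp (range 128 bp to 1889 bp), and the median of the list was 379 bp. Median widths were 656 bp at Fgf4 and 671 bp at Utf1, and 303 bp to 365 bp at the other 3 genes. By GC content the median was 51.5% at the 5 genes and 49.2% in the list, and it was lowest at Fbxo15 (46.5%) and highest at Lefty1 (56.0%). Distal regions, those centered over 1 kb away from every annotated TSS, made up 44 of the 59 regions (74.6%) and 82.7% of the list. Of the 15 proximal regions, 6 lay at a TSS of the gene itself and 9 at that of a neighbor only. The 44 distal regions were centered in intergenic sequence (27), introns (14), coding sequence (1), UTR (1) and non-coding exon (1). The nearest TSS was a median of 3581 bp away, against 8889 bp for the list, and windows drawn around genes hold a TSS by construction. None of these differences was tested.

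**Figure D5:**
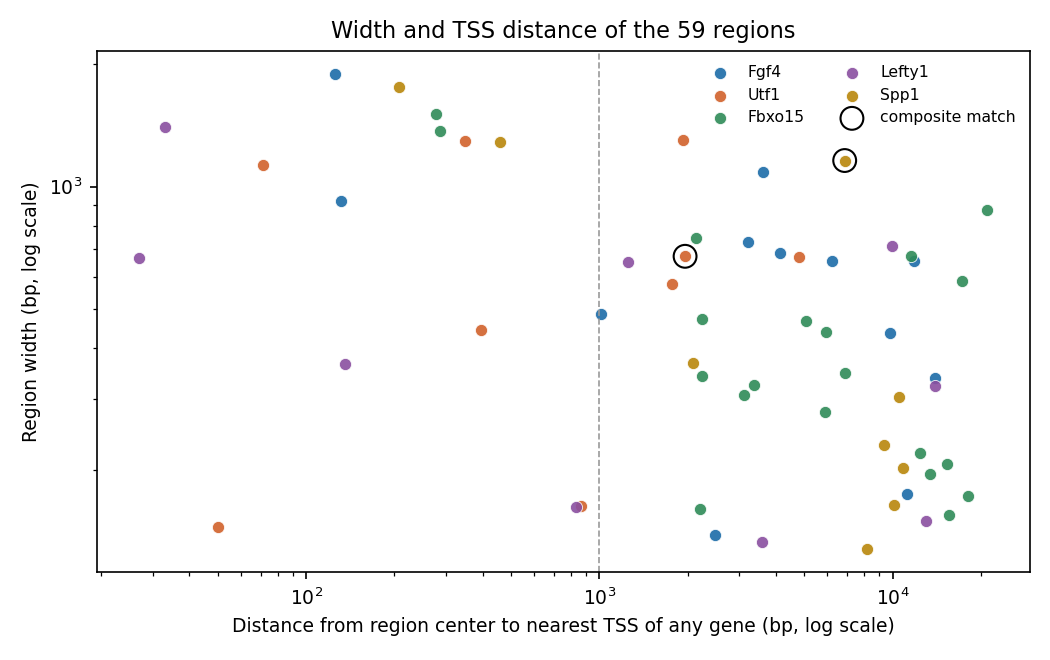
Each point is 1 of the 59 regions, with the distance from its center to the nearest TSS of any gene in bp on the horizontal log axis and its width in bp on the vertical log axis, colored by gene. The dashed line marks 1 kb, and the circled points are the regions with a composite match with at most 2 mismatches, 673 bp wide at Utf1 and 1159 bp wide at Spp1.

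The 20 kb limit fell between regions of the list without cutting one. On the 2 sides of the 5 genes, the outermost regions inside it had their nearer edge 1903 bp (Spp1, upstream) to 18851 bp (Fgf4, upstream) from the gene. The nearer edge of the first regions outside lay 20109 bp (Lefty1, downstream) to 27750 bp (Utf1, upstream) away. No region of the 5 windows was over 5 kb wide, the limit that the authors' methods give for removing peaks. The list as deposited had not been filtered at this limit, since its widest region was 58315 bp.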

How the data were processed

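The authors aligned ATAC-seq reads to mm10 (GRCm38) with STAR 2.6.1c, removed duplicates with Picard, called peaks with MACS2 2.1.1.20160309 from read pairs and joined those of both lines into 1 list with BEDTools. The deposited values are start and end positions in bp, with no score or read count, and 0 columns belong to a single sample. Whether peaks were called per replicate is not given in the sources used here.

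Positions were read as 0-based in the deposited list and written 1-based. Genes came from GENCODE M21 and sequence from the RefSeq GRCm38.p6 assembly, on chromosomes 1 to 19, X and Y. The center of a region decided its class. Named genes were the 5 members, genes with a TSS or a region in a window, and 2 lists of related genes. The members and lists were chosen with earlier results of these data known. Intervals are 95% Wilson intervals. No test was run, since the list pools all conditions. On simulated data 838 of 838 planted matches and 300 of 300 windows came out right. Python 3.11.15, NumPy 2.4.6, pandas 2.3.3, numba 0.67.0, statsmodels 0.14.6 and matplotlib 3.10.9 were used.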

Additional observations from a re-analysis of the deposited data

How the results depend on the processing

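The 59 regions at the 5 genes became 111 with 50 kb to either side, and stayed between 46 and 59 under the other settings. The 4 enhancer windows with a region became 2 when the region center, and also 2 when at least 50% of the region, had to lie in the window, 3 with 0.5 kb and 5 with 2 kb upstream or downstream. Regions with a composite match numbered 0 with at most 1 mismatch, 10 with at most 3 and 1 in the central 200 bp, against 2 as given. Over the whole list, 0.171% of regions held a match when 1 mismatch was allowed and 10.9% when 3 were, 1.08% with a spacer of 0 or 1 base, 2.13% with a spacer of 0 to 4 bases (chosen after the values were seen), 0.878% in the central 200 bp and 2.03% in regions of at least 200 bp, against 1.78%. The median share of genes with fewer regions than the 5 was 59.7%, and became 53.5% with regions of at least 200 bp, 60.9% with regions less than 100 bp apart joined, 72.6% with 10 kb and 76.7% with 50 kb to either side, 76.7% by bases covered and 90.5% per kb. Of 65 further values for single genes, 30 moved beyond their limit. No paired analysis was possible because single libraries have no values in the list, and for the same reason no replicate could be left out. Sequencing depth limits which regions a peak caller finds, and it is unknown here.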
